A study of Mus musculus with 5 samples.

Results

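Peaks of H3K36me3 that lay in non-coding genes and touched no protein-coding gene made up a small share of the marked chromatin of medullary thymic epithelial cells. They were chosen by annotation alone: a peak was taken if at least 1 bp of it lay within the RefSeq span of a gene whose biotype is not protein-coding, and if no base of it lay within a protein-coding span. This gave 767 of the 17474 peaks in the lists of both ChIP libraries, 258 of 7231 in series 1 (3.57%, exact binomial 95% interval 3.15 to 4.02%) and 509 of 10243 in series 2 (4.97%, 4.56 to 5.41%). The cells were mTEClo, sorted from the thymus of wild-type B6 mice as EpCAM+ UEA-1+ cells with low Ly51 and low CD80. All 5 libraries, 2 of H3K36me3 ChIP and 3 of input without antibody, share that strain, genotype, tissue and sort. Per the labels the cells came from individual mice, but no mouse is tied to a library, so a difference between the series may be biological or technical. With 1 library per series, no difference between classes of peaks has a replicate test. Intervals on shares and densities cover counting error only, and the peaks of a list are not independent replicates.

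Trimethylation of lysine 36 on histone H3 is laid down by SETD2, which travels with elongating RNA polymerase II, so the mark accumulates along the bodies of transcribed genes and towards their 3′ ends. Long non-coding RNA genes (lncRNA genes) transcribed by polymerase II can carry it in the same way, and in mouse and human cells the combination of a marked promoter and an H3K36me3 domain has been used to find such genes. Pseudogenes are disabled copies of genes, of which some are transcribed. Hosts of small RNAs are longer transcripts from which microRNAs or small nucleolar RNAs are cut, and the immunoglobulin and T cell receptor loci are arrays of gene segments that lymphocytes rearrange, which RefSeq lists under their own biotypes.

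The mature microRNAs below are those of host genes whose spans held peaks, shown because they name the small RNA products of the best known hosts. Sequences are RefSeq's on build GRCm38.p6, written 5′ to 3′, and capitals mark the seed, bases 2 to 8. The first pair shares the seed AGCACCA and comes from A330023F24Rik (plus strand, chr1:195037091-195037113 and chr1:195037600-195037621). The next 3 come from Mir100hg on the plus strand (chr9:41531437-41531458, chr9:41536777-41536797 and chr9:41581940-41581961). The last 3 come from Dleu2 on the minus strand (chr14:61631936-61631957), Mir17hg on the plus strand (chr14:115044476-115044496) and Mir670hg on the minus strand (chr2:94261358-94261379). Their seeds differ from each other and from that of the first pair.
mmu-miR-29b-3p: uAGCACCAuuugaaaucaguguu
mmu-miR-29c-3p: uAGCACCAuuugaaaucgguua
mmu-miR-100-5p: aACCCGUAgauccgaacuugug
mmu-let-7a-2-3p: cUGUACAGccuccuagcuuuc
mmu-miR-125b-5p: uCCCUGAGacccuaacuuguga
mmu-miR-16-5p: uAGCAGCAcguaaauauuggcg
mmu-miR-92a-3p: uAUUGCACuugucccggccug
mmu-miR-670-5p: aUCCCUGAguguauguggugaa

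The next sequences lay under the peaks themselves, with capitals marking the bases inside a peak. RefSeq's promoter windows, which run from 250 bases before a transcript start to 50 after it, were touched by such a peak at 4 lncRNA genes, all in series 2. The 3 with more than a few shared bases are shown, followed by the hairpins of Mir327 and Gm51282, which lay wholly inside series 1 peaks.
Gm29398 (chr1:149449923-149450222, minus strand): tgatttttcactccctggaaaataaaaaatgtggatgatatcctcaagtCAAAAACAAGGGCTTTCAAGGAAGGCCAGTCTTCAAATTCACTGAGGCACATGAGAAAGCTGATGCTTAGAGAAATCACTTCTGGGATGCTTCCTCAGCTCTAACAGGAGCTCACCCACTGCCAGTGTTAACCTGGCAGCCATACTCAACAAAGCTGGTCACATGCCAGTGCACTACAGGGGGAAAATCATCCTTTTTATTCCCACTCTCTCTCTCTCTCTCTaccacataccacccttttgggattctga
Gm35335 (chr6:60342037-60342336, plus strand): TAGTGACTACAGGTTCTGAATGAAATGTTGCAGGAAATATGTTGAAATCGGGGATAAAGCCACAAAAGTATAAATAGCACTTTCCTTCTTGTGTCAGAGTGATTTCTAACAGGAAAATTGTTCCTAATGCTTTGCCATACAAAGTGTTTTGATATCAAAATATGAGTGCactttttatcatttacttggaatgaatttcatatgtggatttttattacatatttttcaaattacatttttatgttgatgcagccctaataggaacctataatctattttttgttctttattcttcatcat
Gm46412 (chr13:46734853-46735152, plus strand): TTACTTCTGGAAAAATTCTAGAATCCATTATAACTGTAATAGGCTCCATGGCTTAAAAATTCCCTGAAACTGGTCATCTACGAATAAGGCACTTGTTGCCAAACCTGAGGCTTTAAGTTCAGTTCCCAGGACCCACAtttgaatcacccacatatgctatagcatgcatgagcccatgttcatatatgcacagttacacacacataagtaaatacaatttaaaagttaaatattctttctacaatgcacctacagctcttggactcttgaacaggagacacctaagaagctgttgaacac
Mir327 (chr14:44947443-44947511, minus strand): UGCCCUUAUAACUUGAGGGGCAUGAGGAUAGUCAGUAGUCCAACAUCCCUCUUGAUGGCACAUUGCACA
Gm51282 (chr1:177579452-177579529, minus strand): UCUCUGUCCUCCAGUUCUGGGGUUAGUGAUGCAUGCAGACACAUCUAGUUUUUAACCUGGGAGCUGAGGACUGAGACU

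Along non-coding genes, peaks were about as dense as along sequence without any gene, and sparser than along coding genes. In series 1, non-coding spans outside coding genes (213.7 Mb) held 1.21 peaks per Mb (exact Poisson 95% interval 1.06 to 1.36), against 1.25 (1.19 to 1.31) over 1458 Mb of gene-free sequence and 4.99 (4.86 to 5.13) over 1031 Mb of coding genes. In series 2 the densities were 2.38 (2.18 to 2.60), 2.29 (2.21 to 2.37) and 6.20 (6.05 to 6.35) peaks per Mb in the same order. The interval of the non-coding class overlapped that of gene-free sequence in both series and lay below that of coding genes in both. As a ratio, non-coding spans held 0.966 and 1.04 times the density of gene-free sequence in series 1 and 2, and coding genes held 4.14 and 2.60 times the density of non-coding spans. Peak bases gave the same order within each list for coding genes against the other classes, with 669 bp under peaks per Mb of non-coding span in series 1 and 648 in series 2, 685 and 622 in gene-free sequence, and 3187 and 2261 in coding genes.

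**Figure D1:**
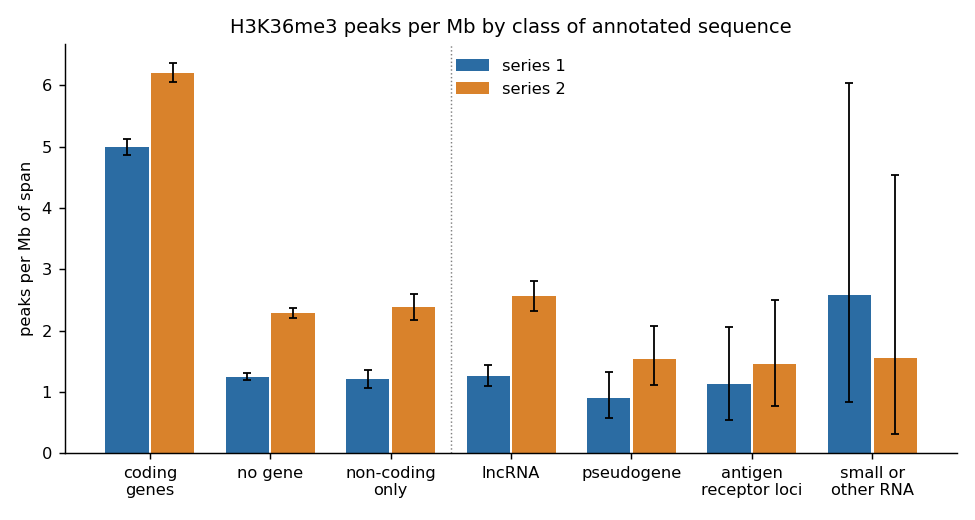
H3K36me3 peaks per Mb of annotated span (y axis) for peaks of series 1 and series 2, in coding genes, in sequence with no gene, in non-coding genes only, and, right of the dotted line, in the classes of non-coding gene. Bars start at 0 and error bars are exact Poisson 95% intervals; coding genes stand at 4.99 and 6.20 peaks per Mb, and non-coding spans at 1.21 and 2.38, beside 1.25 and 2.29 with no gene.

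The peaks in non-coding genes seldom lay at the same place in both libraries. In series 1, 3 of 258 shared at least 1 bp with a series 2 peak (1.16%, exact binomial 95% interval 0.240 to 3.36%), where over all series 1 peaks the share was 4.98%. In series 2 it was 3 of 509 (0.589%, 0.122 to 1.71%), against 3.52% over all series 2 peaks. Gene-free peaks had like shares, 0.933% (0.544 to 1.49%) and 0.539% (0.320 to 0.851%), while peaks in coding genes reached 6.60% (5.94 to 7.31%) and 5.32% (4.78 to 5.89%). Counting any peak of the other series within 1 kb, a limit chosen after seeing the data, raised the non-coding counts to 6 in each list, 2.33% and 1.18%, against 7.05% and 5.05% over all peaks. The files hold no read counts, so depth is unknown and a peak called in a single list may have been below detection in the other.

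The 3 shared places lay in Rab10os, Mir100hg and Gm42242. Rab10os, an lncRNA gene on the plus strand whose name marks it as opposite to Rab10, a GTPase gene of vesicle transport, held a 1459 bp peak of score 20 in series 1 and a 1354 bp peak of score 18 in series 2. These lay at 3239997 to 3241455 and 3239199 to 3240552 on chromosome 12 (mm10) and shared 556 bp. They were the widest peak in a non-coding gene in series 2 and among the 5 widest in series 1, and covered 10.0% and 9.28% of the Rab10os span, 9.64% ± 0.51 (SD, n = 2), the largest mean coverage among hosts hit in both series. The authors' score is a whole number per peak whose meaning is not stated, and it ranks peaks within 1 list only. The series 1 peak lay 5973 bp and the series 2 peak 6876 bp beyond the 3′ end of Rab10.

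Mir100hg, whose transcript gives rise to miR-100, let-7a-2 and miR-125b-1, was hit by 2 peaks in series 1 and 4 in series 2 over its 238.7 kb on chromosome 9. The series 1 peak at 41524117 to 41524414 (score 14) and the series 2 peak at 41524157 to 41524526 (score 19) shared 258 bp. This place lies 6.90 kb from the Mir100 hairpin on the series 2 side and 7.01 kb on the series 1 side, in the stretch before the cluster whose mature sequences are printed above. The nearest coding gene to the shared series 1 peak was Ubash3b, 362425 bp away. Gm42242, an lncRNA gene on chromosome 5, held a 686 bp peak at 28188297 to 28188982 in series 1 (score 17) that wholly contained the 219 bp series 2 peak at 28188710 to 28188928 (score 12). It lies near one annotated end of that 11.1 kb gene, 11837 bp from the coding gene Cnpy1.

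A further 3 places came within 1 kb without touching. In the immunoglobulin heavy chain locus Igh on chromosome 12, the series 1 peak at 114586846 to 114587085 had the highest score of any series 1 peak in a non-coding gene, 119. The series 2 peak at 114586583 to 114586799 lay 47 bp from it, with a score of 12, close to the lowest score of 10 in that class. The others were in Gm31711, with a gap of 630 bp, and Gm33609, with a gap of 833 bp, both lncRNA genes whose roles the annotation does not give.

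**Figure D2:**
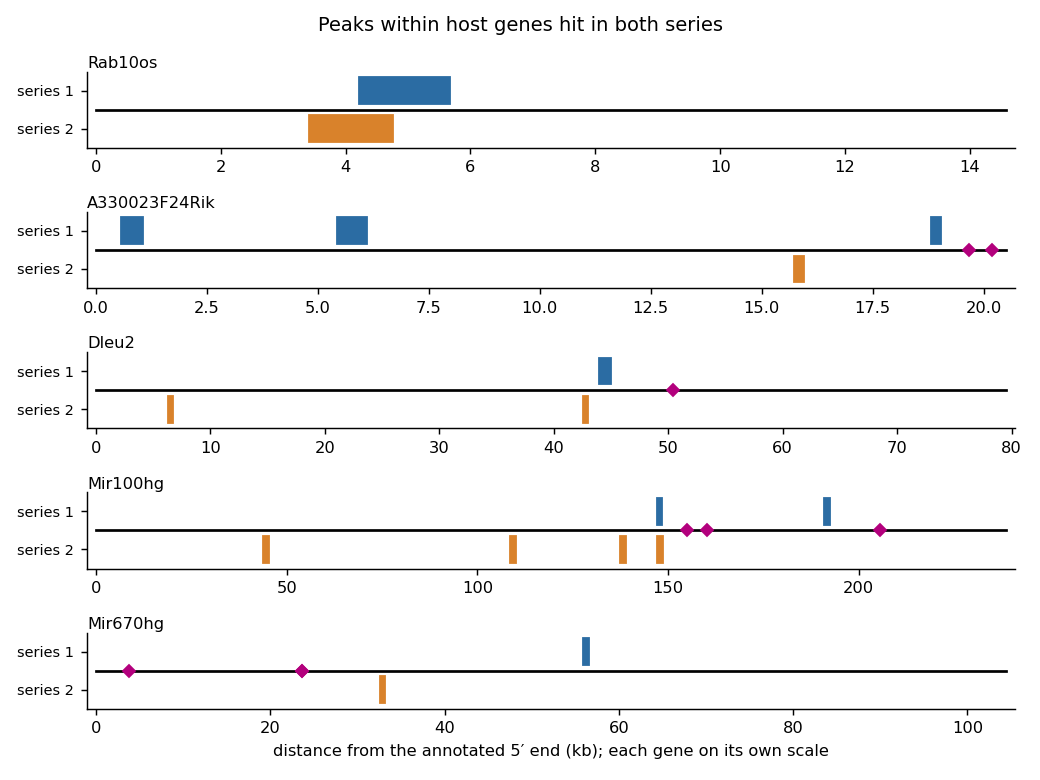
Peaks of series 1 (above the line) and series 2 (below) along 5 host genes hit in both series; the x axis is the distance from the annotated 5′ end in kb, on a separate scale for each gene, narrow peaks are drawn at a minimum width, and diamonds mark microRNA hairpins. Peaks of both series overlap in Rab10os and once in Mir100hg, and none of the drawn peaks touches a hairpin.

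The peaks were described next by the biotype of the host. LncRNA genes held 222 of the 258 peaks in series 1 (86.0%, exact binomial 95% interval 81.2 to 90.0%) and 452 of 509 in series 2 (88.8%, 85.7 to 91.4%). Pseudogenes held 25 (9.69%) and 43 (8.45%), the antigen receptor loci 10 (3.88%) and 13 (2.55%), and genes of small or other RNAs 5 (1.94%) and 3 (0.589%). A peak that touched 2 classes counts for each, which concerned 4 peaks in series 1 and 2 in series 2. Per Mb of span outside coding genes, lncRNA genes had 1.26 (exact Poisson 95% interval 1.10 to 1.43) and 2.56 (2.33 to 2.81) peaks, pseudogenes 0.898 (0.581 to 1.33) and 1.54 (1.12 to 2.08), and antigen receptor loci 1.12 (0.539 to 2.07) and 1.46 (0.778 to 2.4998). In series 2 the interval of pseudogenes lay below that of lncRNA genes, and in series 1 the intervals overlapped. Every touching pair of peaks lay in an lncRNA gene.

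Genes hit were then counted. In all, 245 non-coding genes held such a peak in series 1 and 468 in series 2, and 49 held one in both, which is 20% of the series 1 hosts and 10.5% of the series 2 hosts. Of the 19492 non-coding genes that overlap no coding gene, 201 were hit in series 1 (1.03%), 379 in series 2 (1.94%) and 39 in both (0.200%). Over all 49939 genes of any biotype the shares with at least 1 bp of a peak were 7.99%, 9.95% and 3.87%. These count peaks of every class, whereas the counts of non-coding genes leave out any peak that also touches a coding gene. A hit covered little of its host: in the median host free of coding genes, series 1 peaks covered 1.11% and series 2 peaks 0.780% of the gene. Only 16 hosts in series 1 and 49 in series 2 held more than 1 peak, with at most 4 in a host of series 1 and 5 in a host of series 2.

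Longer genes were hit more often, so coding and non-coding genes were compared within classes of length. Non-coding genes were counted with peaks that touch no coding gene, and coding genes with any peak. Among genes over 100 kb, series 1 peaks touched 51 of 194 non-coding genes (26.3%, exact binomial 95% interval 20.2 to 33.1%) and 47.7% (45.6 to 49.7%) of 2428 coding genes. For series 2 the shares were 34.0% (27.4 to 41.2%) and 60.2% (58.2 to 62.2%). From 3 kb up, the share rose from class to class for both kinds of gene, and the non-coding share was the lower in each class. From 30 to 100 kb the gap was wider as a ratio, at 5.90% of non-coding against 27.8% of coding genes (series 1) and 11.3% against 32.7% (series 2), and from 10 to 30 kb it was 1.76% against 13.3% and 4.24% against 14.7%. In both series together the shares over 100 kb were 12.4% (8.09 to 17.8%) and 33.4% (31.5 to 35.3%). Median lengths within a class were close but not equal, 145.3 kb and 171.8 kb in the longest.

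**Figure D3:**
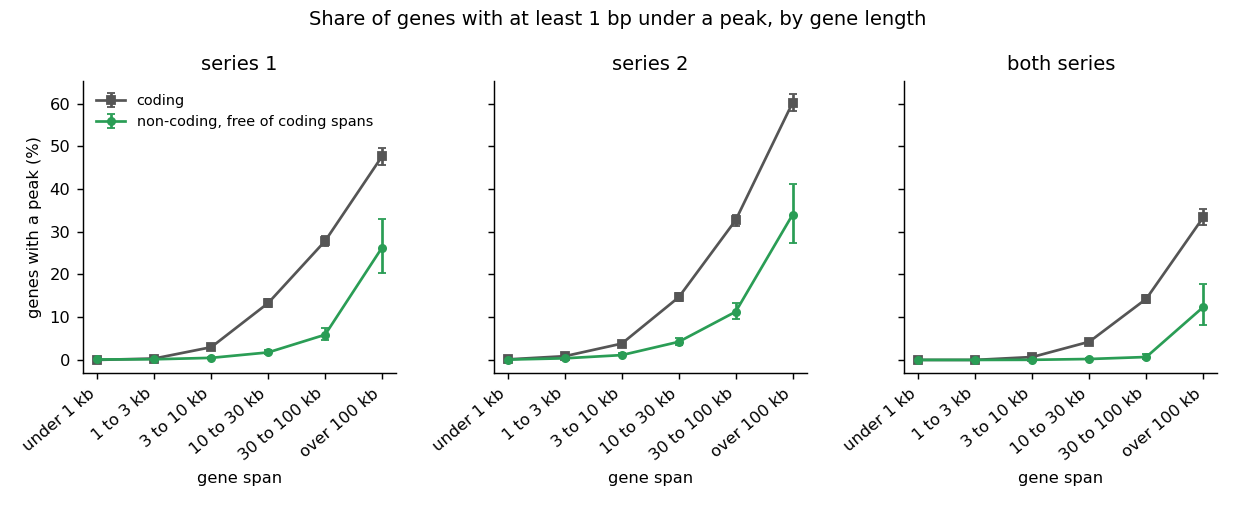
Percent of genes with at least 1 bp under a peak (y axis) by class of gene span (x axis) in series 1, series 2 and both, for coding genes and for non-coding genes that overlap no coding gene; error bars are exact binomial 95% intervals. For non-coding genes, peaks that also touch a coding gene were not counted. In the longest class the non-coding genes stand at 26.3%, 34.0% and 12.4%, below the coding genes at 47.7%, 60.2% and 33.4%.

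The 49 hosts hit in both series were long, with a median of 118.3 kb, and their peaks mostly lay apart. The nearest series 1 and series 2 peaks shared bases in 3 hosts, came within 1 kb in 6 and within 10 kb in 19, and the median gap was 19.005 kb. By biotype they were 40 lncRNA genes, 5 pseudogenes and 4 antigen receptor loci, and 24 carry only a model name (Gm followed by a number). The median over the hosts of the mean covered share was 0.338% of the span. After Rab10os, the best covered was Gm49848, a pseudogene of 8.47 kb on chromosome 17, with 12.7% of its span under a series 1 peak and 3.33% under a series 2 peak, 7.99% ± 6.60 (SD, n = 2). Gm42242 followed with 6.16% and 1.97%, then A330023F24Rik with 6.94% and 1.09%, Gm33609 with 5.50% and 1.25%, and the lncRNA gene 3110015C05Rik with 4.45% and 1.22%. In these 5, series 1 covered the larger part. It did not in Gm30605, with 1.42% and 1.94%, or in Mir100hg, with 0.329% and 0.549%.

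Hosts of microRNAs and small nucleolar RNAs were the best known genes among those hit. The list holds genes named as hosts (Snhg and Mir host genes, Dleu2 and Gas5), 28 in the annotation, of which 23 overlap no coding gene. Series 1 peaks hit 3 of the 23, series 2 peaks hit 4 (17.4%), and 3 were hit by both. Over all non-coding genes free of coding spans the shares were 1.03%, 1.94% and 0.200%. The 3 hit by both were Mir100hg, Mir99ahg and Mir670hg, which are 238.7, 229.1 and 104.5 kb long, in the class of length where 12.4% of non-coding genes were hit in both series. The median length on the list is 3.75 kb. With hosts that overlap a coding gene included, Dleu2 was hit in both series as well.

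Mir99ahg, a microRNA host gene on chromosome 16, held 1 peak in each series of nearly the same width, 1059 bp (score 17) and 1091 bp (score 12), with 4.79 kb between them. They covered 0.462% and 0.476% of the span, 0.469% ± 0.0099 (SD, n = 2). The series 2 peak also lay in 9430053O09Rik, an lncRNA gene on the opposite strand, and covered 3.72% of it. Peaks carry no strand, so that peak cannot be assigned to one of these genes. Dleu2, the host of miR-16-1 in a region deleted in human chronic lymphocytic leukaemia, held a 1077 bp peak in series 1 and peaks of 218 and 219 bp in series 2. The nearest of these lay 1.03 kb apart and 5.41 kb (series 1) and 7.52 kb (series 2) from the Mir16-1 hairpin. Mir670hg held 1 narrow peak per series, with scores of 13 and 12. Mir17hg, the host of the miR-17-92 cluster that promotes cell proliferation, was hit in series 2 alone: a 972 bp peak with a score of 12 covered 41.6% of its 2.34 kb, reached its annotated 3′ end and began 1.25 kb beyond the Mir92-1 hairpin. The imprinted Snhg14, a small nucleolar RNA host of 1177 kb, held 1 peak of 417 bp in series 1.

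A330023F24Rik, the host of miR-29b-2 and miR-29c, bears no host name but had peaks in both series. It held 3 peaks in series 1, of 504, 692 and 227 bp with scores of 21, 11 and 29, and 1 in series 2, of 223 bp with a score of 29. The nearest peaks to the Mir29b-2 hairpin lay 0.594 kb away in series 1 and 3.68 kb in series 2. The coding neighbour is Cd46, a complement regulator, whose 3′ end lay 2525 bp from the nearest series 1 peak. The miR-29 family, whose shared seed is printed above, is known in thymic epithelium for limiting its sensitivity to interferon. Whether the A330023F24Rik locus takes part in that was not tested.

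Small RNA genes themselves were touched in a few cases. Of 397 microRNA genes free of coding spans, 2 were hit in series 1 and 1 in series 2, and none in both. None of 374 transfer RNA genes was hit in either series, and of 1585 small nucleolar, small nuclear and ribosomal RNA genes 2 were hit in series 1 and none in series 2. These genes are short, with median lengths of 0.082, 0.072 and 0.111 kb. The microRNA shares, 0.504% and 0.252%, stand beside 0.104% and 0.0783% of all non-coding genes under 1 kb, and rest on 3 genes, 1 of them touched by a single base. Mir327 lay inside a 229 bp series 1 peak of score 50, at 44947437 to 44947665 on chromosome 14, together with the lncRNA genes Gm16976 and Gm41142. Gm51282 lay inside a 1125 bp peak of score 13 in Gm30013. The snoRNA gene Gm22186 lay in a 396 bp peak of score 23 that also lies in 1700020G17Rik, and 48 bp of the snRNA gene Gm25650 lay under an 882 bp peak of score 12. Mir710 was touched by 1 bp of a 1120 bp series 2 peak.

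Well studied non-coding RNA genes of the nucleus and of housekeeping roles, most of them lncRNA genes, had no peak. None of the 15 genes on that list, which includes Malat1 and Neat1 of the nuclear speckles and paraspeckles, Norad, Tug1, Pvt1 and the RNA component of telomerase Terc, held a peak of any class in either series. Their median length among the 14 free of coding spans is 5.68 kb, a length at which 0.484% and 1.13% of non-coding genes from 3 to 10 kb were hit in series 1 and 2. A lack of a peak means that none was called, at a depth that is unknown. Pvt1, at 222.2 kb, and Rmst, at 83.4 kb, are much longer than that median and had none either. Rpph1, Rmrp, Rn7sk and Terc have RefSeq biotypes other than lncRNA and are 0.325, 0.275, 0.332 and 0.397 kb long. Of non-coding genes under 1 kb and free of coding spans, 0.104% and 0.0783% were hit in series 1 and 2.

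Of 5 genes of X chromosome dosage compensation, all free of coding spans, 3 were hit in series 1, where 1 peak accounts for 2 of them, and 1 in series 2, with none in both. The shares over all such non-coding genes were 1.03% and 1.94%, and over those from 30 to 100 kb, the class of the list's median of 53.4 kb, 5.90% and 11.3%. Firre, which shapes nuclear organisation around its locus, held 2 peaks in series 1, of 381 bp (score 38) and 694 bp (score 17), over 1.49% of its 72.2 kb. A 697 bp series 1 peak (score 25) on the X chromosome from 103466947 to 103467643 lay in both Xist, the RNA that coats the inactive X, and Tsix, its antisense. The spans of the pair overlap there and peaks carry no strand, so it cannot be assigned to one of them. Ftx, an activator of Xist, held 1 peak of 224 bp in series 2 (score 39), and Jpx held none.

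Imprinted, developmental and immune lncRNAs held at most 1 such peak each. Free of coding spans, 0 of 3 imprinted, 1 of 6 developmental and 1 of 6 immune genes were hit in series 1 and none in series 2, beside 1.03% and 1.94% of all non-coding genes. With so few genes these counts set nothing apart. Of 9 imprinted genes annotated, Airn, which silences the paternal Igf2r, had 1 peak of 225 bp in series 2, and Snhg14 had that of series 1. H19, Meg3 and Kcnq1ot1 had no peak. Of 11 genes on the Hox and developmental list, Dlx6os1, which acts on Dlx5 and Dlx6 in the forebrain, held a 1283 bp peak of score 27 in series 1, among the 10 widest of its class, and Lncpint held 1 of 407 bp. Of 10 on the immune list, Lincred1 had a 1368 bp peak in series 1 over 10.5% of its span and Ptprv, a transcribed pseudogene, had 1 of 220 bp in series 2. Among 222 genes whose symbols end in os or ot, with or without a number, as opposite-strand and overlapping transcripts often do, 3 held such a peak in series 1 and 5 in series 2. Of the 51 free of coding spans, none was hit in series 1 and 2 in series 2 (3.92%), beside 1.03% and 1.94% of all non-coding genes. Of all 222, Rab10os and Pax6os1 held such a peak in both series, and neither is among the 51. Pax6os1, opposite to the eye and pancreas regulator Pax6, had 1 peak in series 1 (0.235% of the gene) and 2 in series 2 (0.375%). Genes with Rik names, which come from a cDNA collection, were hit in 33 (2.78%) and 60 (5.05%) of 1188 cases free of coding spans, and genes with Gm model names in 147 (1.02%) and 291 (2.02%) of 14394. The median lengths of these sets are 9.54 and 2.10 kb.

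Peaks in pseudogenes fell on 60 of 10433 annotated pseudogenes, 24 in series 1, 41 in series 2 and 5 in both. Of these 60, 12 are shorter than 3 kb and 19 are at least 30 kb long. Among pseudogenes under 1 kb and free of coding spans, 0.0918% were hit in each series. Beside them stand 0.104% and 0.0783% of all such non-coding genes of that length. From 30 to 100 kb the pseudogene shares were 4.81% and 8.65%, beside 5.90% and 11.3%. Mx2, which RefSeq lists as a transcribed pseudogene in this strain and whose family encodes interferon-induced GTPases against viruses, held a 560 bp peak of score 28 in series 1 and peaks of 218 and 216 bp with scores of 12 and 10 in series 2. It was covered over 2.26% and 1.75% of its span, 2.00% ± 0.36 (SD, n = 2), with 10.2 kb between the nearest peaks of the series. Gm18728, a locus of 429.5 kb on chromosome 1, held the widest series 1 peak in a non-coding gene, 1908 bp with a score of 29. Reads of near-identical copies can be shared between a pseudogene and its parent. For 3 of the 60 the symbol names an annotated parent, and the parent had a peak in the same list in 1 case: Polr2d-ps2, with a 185 bp overlap and a score of 51 in series 2, whose parent Polr2d encodes a subunit of RNA polymerase II. Over all genes of any biotype 7.99% and 9.95% had a peak in series 1 and 2. With 3 parents this count sets nothing apart, and sharing of reads was not tested.

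The antigen receptor loci are rearranged and expressed in lymphocytes, which surround the medullary epithelium in the thymus. Igk (3.17 Mb) held 4 peaks in series 1 and 5 in series 2, and Igh (2.75 Mb) held 3 in each. Tcrb held 2 and 1, Igl 1 and 1, Tcra 0 and 3, and Tcrg none. Over all these loci the densities given above, 1.12 and 1.46 peaks per Mb, had intervals that reached from below to above the 1.21 per Mb of all non-coding spans in series 1, and to just above 2.38 in series 2. Among coding markers of thymocytes, Satb1 alone of 7 had a peak, in series 2, and Cd3e, Cd4, Cd8a, Ptprc and Rag1 had none. Of 8 markers of medullary epithelium 3 had a peak in each series, Krt5 and Itga6 in both, while Krt14 and Epcam had none, and Fbn1 of 3 fibroblast and Flt1 of 3 endothelial markers were hit in both. Over all genes of any biotype 7.99% and 9.95% had a peak. Over coding genes the shares were 2.98% and 3.82% from 3 to 10 kb, and 27.8% and 32.7% from 30 to 100 kb. The markers were not matched by length, and their counts are too small to set one list apart from another. The part of other cells in these peaks was not tested.

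Width differed more between the lists than between classes of peak within a list, where peaks in coding genes were the wider. The median series 1 peak in a non-coding gene was 402.5 bp wide, with quartiles at 297 and 791 bp, beside 523 bp in coding genes and 414 bp without a gene. In series 2 the median was 221 bp, with quartiles at 218 and 225 bp, beside 223 and 221 bp. The narrowest peak was 221 bp in every class of series 1 and 216 bp in every class of series 2. Most series 2 widths in non-coding genes thus lay close to the lower limit of that list, and say little about the extent of the mark. In that list 88.2% of the peaks were narrower than 250 bp, against 70.4% in coding genes and 88.6% without a gene, and in series 1 the share was 10.9%, against 7.44% and 10.1%. Peaks of at least 1 kb made up 13.6% and 1.77% in series 1 and 2, against 16.7% and 5.46% in coding genes. Median scores were 20 in series 1, with 21 in coding genes and 20 without a gene, and 14 in series 2, with 16 and 16. The highest scores belonged to narrow peaks: of 20 series 1 peaks with a score of at least 50, 16 were narrower than 400 bp and none reached 1 kb, and all 11 of series 2 were narrower than 400 bp. Conversely the 35 series 1 and 9 series 2 peaks of at least 1 kb had scores of at most 41.

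Single narrow peaks led the ranking by score. In series 2 these were in Gm46516 (233 bp, score 170), Gm33838 (217 bp, score 117), Gm40651 (score 82), Gm33370 (score 73) and Gm29536 (score 69), all lncRNA genes with model names and no peak in series 1. In series 1, after Igh, they were in 1700010J16Rik (302 bp, score 95), Gm36534 (score 76), Gm40094 (score 72) and 5730522E02Rik (score 67). Of these, 5730522E02Rik, an lncRNA gene of 593.7 kb, had peaks in both series, 2 in each. The widest peaks after those already described lay in Gm39928 (1795 bp) and Gm6602 (1475 bp) in series 1 and in 4930518J21Rik (1196 bp) in series 2. Peaks recurred in series 1 in 2610307P16Rik, a 425.4 kb gene neighbouring Sox4, which held 4 in series 1 and none in series 2.

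**Figure D4:**
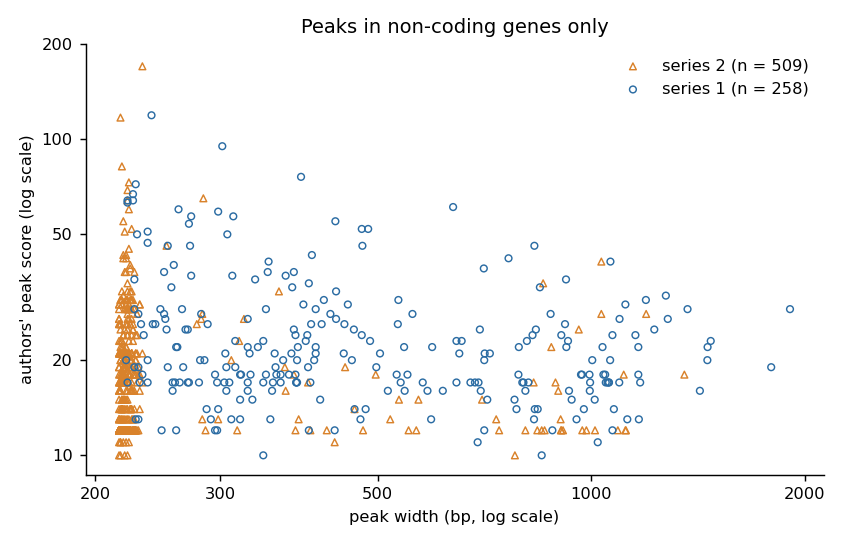
Width in bp (x axis, log scale) against the authors' score (y axis, log scale) of each peak in a non-coding gene, 258 of series 1 and 509 of series 2. Most series 2 peaks stand in a column under 250 bp, and the peaks with scores of at least 50 are narrow in both lists.

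Where in their hosts the peaks lay was measured for lncRNA genes of at least 3 kb with a known strand. In series 1, 31.0% of 174 peaks had their middle in the 5′ stretch of the gene when each gene was cut into 3 equal stretches, 36.8% in the central stretch and 32.2% in the 3′ stretch. In series 2 the shares of 344 peaks were 32.3%, 32.0% and 35.8%. The peaks were thus spread along the hosts, with medians at 49.5% and 53.6% of the way from the 5′ end. By the same rule peaks in coding genes lay towards the 3′ end, with 22.4%, 34.8% and 42.8% of 4056 series 1 peaks and 23.8%, 35.6% and 40.5% of 5057 series 2 peaks in the 3 stretches. With peaks of every class counted, few promoter windows were touched: 11 of 21262 promoter windows of coding genes in series 1 (0.0517%) and 14 in series 2 (0.0658%). Of all 11588 windows of non-coding genes, 5 (0.0431%) and 13 (0.112%) were touched. Of the 7445 windows of those free of coding spans, 1 and 3 were. The earlier count of lncRNA genes took peaks of the non-coding class only. The 3 promoter stretches printed above have 47.5%, 34.9% and 40.1% G and C under the peak and at most 1 CpG there. Over all their bases these windows hold 0, 1 and 1 CpG and 45%, 30% and 38.3% G and C. The median window of a non-coding gene holds 4 CpG and 48.3% G and C. In Gm29398 only 22 bp of the 223 bp peak lay inside the gene.

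Distance from coding genes was the last property compared. The median gap from a peak to the nearest coding gene was 60.6 kb in series 1 and 64.5 kb in series 2, against 115.8 and 83.6 kb for peaks without a gene. Within 5 kb of a coding gene lay 22 (8.53%) and 47 (9.23%) of the peaks in non-coding genes. Of those whose coding neighbour has a known strand, 8 of 17 in series 1 (47.1%, exact binomial 95% interval 23.0 to 72.2%) and 13 of 39 in series 2 (33.3%, 19.1 to 50.2%) lay beyond its 3′ end. Peaks without a gene lay mostly on that side within the same distance, 71.6% (64.0 to 78.4%) in series 1 and 63.5% (58.3 to 68.5%) in series 2. The intervals of the classes did not overlap in series 2 and did in series 1. Peaks of the non-coding class can lie only where a non-coding gene is annotated, and the part of annotation in these shares was not tested. Within 100 kb the shares were 49.1% and 41.6% in non-coding genes and 51.9% and 49.9% without a gene.

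**Figure D5:**
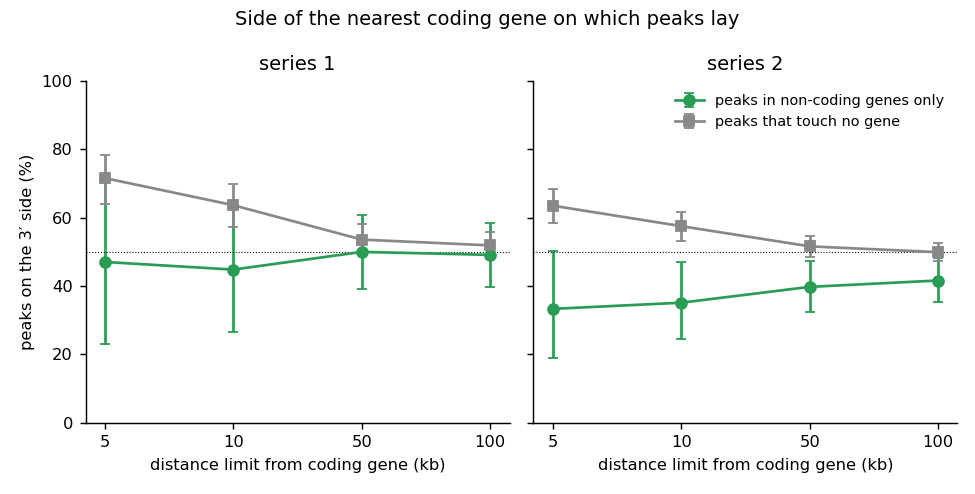
Percent of peaks that lay beyond the 3′ end of the nearest coding gene (y axis), among peaks within 5, 10, 50 or 100 kb of it (x axis), for peaks in non-coding genes only and peaks without a gene; error bars are exact binomial 95% intervals and the dotted line marks 50%. Within 5 kb the non-coding peaks stand at 47.1% and 33.3% and the peaks without a gene at 71.6% and 63.5%.

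The edges of the rule were as follows. Most peaks lay wholly within a non-coding span, 250 of 258 in series 1 and 490 of 509 in series 2. Just inside were the peak at Mir710, by 1 bp, and those at Gm31406, by 10 bp, and Gm29398, by 22 bp, all of series 2 and with scores of 12, 12 and 18. In series 1 the peak of Gm25650 came in by 48 bp. The peaks nearest to a coding gene lay 85 bp away, in Gm35598 (series 2, score 19), and 170 bp away, in Gm32730 (series 1, score 16). Just outside were 2 series 2 peaks that ended 1 and 2 bp from a non-coding span, with scores of 12 and 27. The excluded peak with the fewest bases in a coding gene was a 288 bp series 1 peak at Gm34632, with 124 bp there and a score of 17. In series 2 it was a 223 bp peak at Snora33, of which 180 bp lay in a coding gene.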

How the data were processed

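H3K36me3 was profiled by ChIP-seq in sorted mTEClo, and 2 lists of broad peaks, 1 per ChIP library, were analysed. The submitters' processing notes name build mm10 and the tools Bowtie2, SAMtools and MACS2, without versions, and the settings were not given in the sources used here. According to the deposited peak names, the series 1 ChIP was called against 2 inputs together and the series 2 ChIP against 1. The authors deposited for each peak its position and a whole-number score of unstated meaning. The files hold no read counts, fold enrichment or p-values, so depth is unknown.

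Gene spans were those of RefSeq on GRCm38.p6, the assembly that mm10 holds, for chromosomes 1 to 19, X and Y. Of 28056 non-coding genes, 9533 had a strand from RefSeq's promoter table. Biotypes of antigen receptor loci and gene segments count as not protein-coding. Gene-free sequence ran from the first to the last gene or peak of a chromosome. No test was made. Genes were named by a rule: the 20 free of coding spans best covered in both series, hosts of the 5 highest scores and 5 widest peaks, the 3 most hit per biotype, list members with a peak, small RNA genes and places shared by both series. Markers came from a list of their own. Genes without a peak, coding neighbours, Igl, Tcra, Pax6os1, Polr2d-ps2, 9430053O09Rik, the genes of the printed promoter windows, genes that share a peak with a small RNA gene and genes at the edge of the rule for members are outside it, and were named after their values were seen. Members and lists were chosen with earlier results of these data known. On simulated data, 100% of 3000 peaks were placed in the class they were given. Placement of peaks where coding and non-coding spans overlap was not tested. Python 3.11.15, numpy 2.4.6, pandas 2.3.3, scipy 1.17.1 and matplotlib 3.10.9 were used.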

Additional observations from a re-analysis of the deposited data

How the results depend on the processing

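With other choices, the non-coding counts followed the number of peaks kept. Requiring 50% of a peak within the span, dropping peaks within 5 kb of coding genes or widening coding spans by 1 kb changed little. Every count stayed within 1.5 times the reported one, and every share and density within the SD between the series. For densities that SD is a loose limit, since the lists gave 1.21 and 2.38 per Mb. The series 1 fall to 0.650 at a score of at least 20 also lay within it. Joining peaks within 1 kb returned the reported values, so it is no check on them. With a score of at least 20, there were 139 and 164 peaks in series 1 and 2 (303 together), none touched the other series (0% in each), 10 genes free of coding spans were hit in both in place of 39, 88.5% of series 1 peaks lay in lncRNA genes and the densities were 0.650 (from 1.21) and 0.767 (from 2.38) per Mb. With at least 50 there were 20 and 11 peaks (31 together), 0% touching in each, 0 such genes in both, 90.0% and 81.8% in lncRNA genes, and densities of 0.0936 and 0.0515 per Mb. Without peaks under 250 bp, 60 remained in series 2 (290 together), of which 3.33% touched series 1, with a density of 0.281 per Mb and 8 such genes hit in both. Without genes of model names (Gm or LOC and a number) there were 81 and 157 peaks (238 together), 2.47% and 1.27% touching, 76.5% and 84.1% in lncRNA genes and 17 such genes hit in both. Of all 49 hosts hit in both series, with those overlapping coding genes, 14 remained with a score of at least 20, 12 without narrow peaks and 25 without model names. Among alternatives chosen after seeing the data, counting the other series within 1 kb gave 2.33% and 1.18% touching, and leaving out antigen receptor loci gave 89.2% and 90.9% in lncRNA genes. Leaving out 1 library gave 258 to 509 peaks in place of 767, and genes hit in both then have no value. No paired analysis was possible because the results come from no test and input libraries have no peak list here.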
